A study of Mus musculus with 6 samples.

Results

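In mouse embryonic stem cells given an oligonucleotide against U1, many RNA 3′ ends gained reads in both sequencing runs. Most of them were close to silent under a scrambled oligonucleotide. A smaller number of abundant ends had a modestly lower share of reads. The comparison set 2 libraries from cells given an antisense morpholino oligonucleotide (AMO) against U1 beside 2 libraries from cells given a scrambled AMO. Each U1 AMO library was paired under the scrambled AMO library of the same replicate number, because read names in the files placed both members of a pair in one sequencing run. The features are cleavage clusters, made by pooling the listed 3′ end positions of all 6 libraries of the series and joining same-strand positions at most 24 nt apart. There were 931826 clusters, of which 796038 had a read in the 4 AMO libraries and 68821 had enough reads to be tested.

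The cells were V6.5, a pluripotent mouse line of mixed C57BL/6 and 129 background, kept in usual embryonic stem cell culture, and 3′ ends of poly(A)-selected RNA were sequenced on an Illumina HiSeq. The 3 groups, each of 2 biological replicates, were untreated cells, cells given a scrambled AMO and cells given a U1 AMO; no genetic change is named for any group. The scrambled AMO libraries held 26846406 and 62257923 reads (replicates 1 and 2), the U1 AMO libraries 15752080 and 57925358, and the untreated libraries 38569397 and 60473882. Read names placed the untreated libraries in 2 other runs, so a difference between untreated and AMO libraries cannot be told apart from run wherever untreated levels are given. The files give no count of U1 function, so the block of U1 was not checked here.

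U1 is the small nuclear ribonucleoprotein that binds 5′ splice sites at the start of splicing. It is also known to hold back premature cleavage and polyadenylation at signals inside transcribed regions, an activity often called telescripting. A poly(A) signal, most often a hexamer of the type aataaa, lies a short way upstream of the cleavage point and is bound by the cleavage and polyadenylation machinery, which then adds the poly(A) tail.

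Each listed position carried a hexamer, and these were the kinds that the results on signals turn on, written as DNA with the bases that differ from the first one in capitals.
canonical: aataaa
most common variant: aTtaaa
a variant with a changed first base: Tataaa
a variant with a changed second base: aGtaaa
all A: aaAaaa
all A but one: aaGaaa
A-rich with a changed first base: TaAaaa
The first was the hexamer at the strongest position of 34480 tested clusters and the second of 11595. The hexamer of all A stood at 2535.

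Counts are reads per cluster and levels are CPM, reads scaled to a library total of 1000000. Log2 ratios of a run are the U1 AMO over the scrambled AMO of that run after adding 0.5 CPM to both, which understates the change of low clusters. Levels are shares of each library, so fewer cells of a kind and less RNA per cell cannot be told apart. Genes are not named, since no annotation of the build of the files was used here, and the cell type was not checked against marker genes for the same reason.

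The raised clusters were mostly ends with next to no use under the scrambled AMO. With the run as a term, edgeR's quasi-likelihood test called 9199 rises (13.4% of tested clusters) and 1571 falls (2.28%) at a Benjamini-Hochberg adjusted p under 0.05. The median level of the rises was 0.0745 and 0.0482 CPM under the scrambled AMO (replicates 1 and 2), 1.27 and 0.915 under the U1 AMO, and 0.0259 and 0 in untreated cells. Of the 9199, 1871 had no read in either scrambled AMO library and 7428 had a scrambled AMO mean under 0.5 CPM. Only 544 of the rises started from 5 CPM or more. Of the 58051 uncalled clusters, 22192 had a scrambled AMO mean under 0.5 CPM and 12237 one of 5 CPM or more. A cluster without a scrambled AMO read could pass the filter on low counts only through its U1 AMO reads, so a rise was the only call open to it. Untreated cells, which took no part in the test, had no read at 3862 of the rises (42.0%). They had none at 1051 of the uncalled clusters (1.81%) and at 1 of the 1571 falls. These shares do not set clusters of like level side by side. Every uncalled or fallen cluster had a scrambled AMO read, and the uncalled clusters had scrambled AMO medians of 0.819 and 0.691 CPM.

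The falls were a different kind of cluster. Their median levels were 20.7 and 20.3 CPM under the scrambled AMO, 12 and 15.3 under the U1 AMO, and 18.6 and 23.2 in untreated cells. Of the 1571, 1255 had a scrambled AMO mean of 5 CPM or more. The median log2 ratio of the falls was -0.73 in the run of replicate 1 and -0.43 in that of replicate 2. Levels are shares, so a gain at some clusters lowers the CPM of the others. The rises took 4.85% and 4.24% of scrambled AMO reads and 10.1% and 8.18% of U1 AMO reads. How much of the falls in CPM follows from this was not tested. Both U1 AMO libraries lay above both scrambled AMO libraries at 8833 of the rises, and below both at 1082 of the falls. The groups also did not overlap, in either direction, at 15018 of the 58051 uncalled clusters. The calls were made from these same 4 libraries, so the separation at called clusters adds no support to them.

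The counts of calls rest on pairing the libraries by run. The fit has 1 residual degree of freedom, and the common dispersion, the spread that all clusters share, was 0.0244 with the run as a term and 0.223 without it. Without the run term, edgeR on the same 4 libraries called 2599 rises (3.78%) and 0 falls (0.0%), with 157 falls at an unadjusted p under 0.05. DESeq2 with the run term called 3737 rises (5.43%) and 463 falls (0.673%). Leaving out 1 library also removed the run term. edgeR then called 0 rises and 0 falls without scrambled AMO replicate 1, with 9303 and 209 at an unadjusted p under 0.05. It called 2592 and 13 without scrambled AMO replicate 2, 4292 and 173 without U1 AMO replicate 1, and 1122 and 6 without U1 AMO replicate 2.

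Rises and falls came from opposite ends of the range of levels. Among 13528 tested clusters with a mean under 0.3 CPM over the 4 libraries, 17.0% rose and 0.214% fell. Among 12104 clusters at 1 to 3 CPM, 14.7% rose and 1.33% fell. Above 10 CPM falls outnumbered rises, with 6.96% rising and 9.07% falling at 10 to 30 CPM. At 30 to 100 CPM 4.47% of 3510 clusters rose and 11.2% fell. The median log2 ratio moved from 0.07 and 0.10 (runs of replicates 1 and 2) in the lowest class to -0.17 and -0.13 at 30 to 100 CPM. The shift of the median was small beside the range within a class. At 30 to 100 CPM the 10th and 90th percentiles were -0.57 and 0.34 in the first run and -0.37 and 0.24 in the second.

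**Figure D1:**
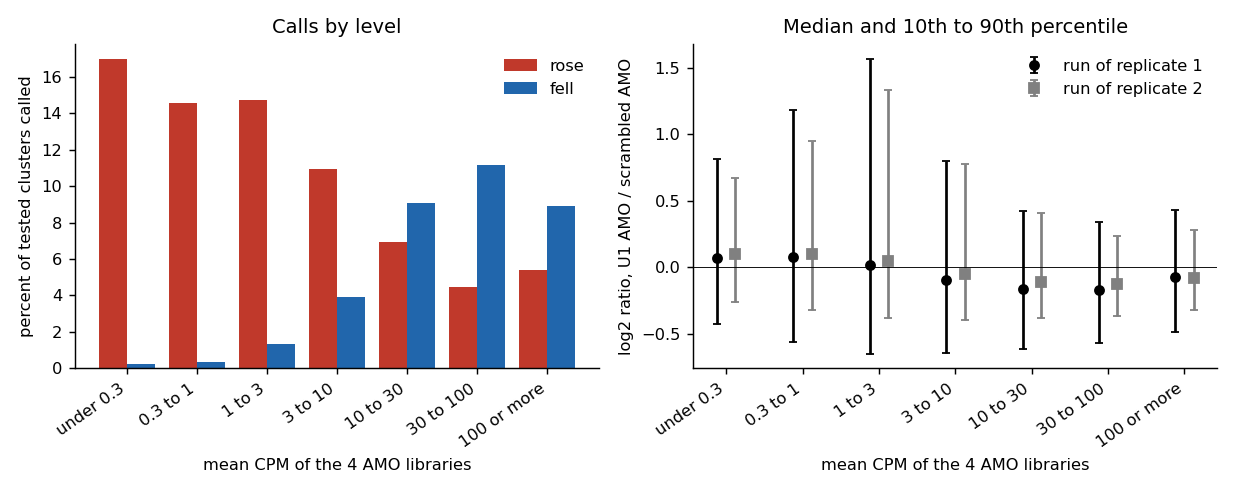
Left, the percent of tested clusters that rose or fell (edgeR with the run as a term) by mean CPM of the 4 AMO libraries; right, the median log2 ratio of U1 AMO to scrambled AMO in each run, with bars from the 10th to the 90th percentile of clusters. Rises take 17.0% of the lowest class and 5.4% of the highest, and falls take 0.214% and 8.89%.

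The size of the change in one run tracked the size in the other. Over 30000 clusters outside chromosome M whose mean reached 1 CPM, the log2 ratios of the runs had Pearson's r of 0.86 and Spearman's rho of 0.55, and 70.5% of clusters had the same sign. These are values across clusters, which share the libraries and their depth and are not replicates. With at least 50 CPM, r was 0.73, rho 0.55 and the share of the same sign 72.6% over 3533 clusters.

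**Figure D2:**
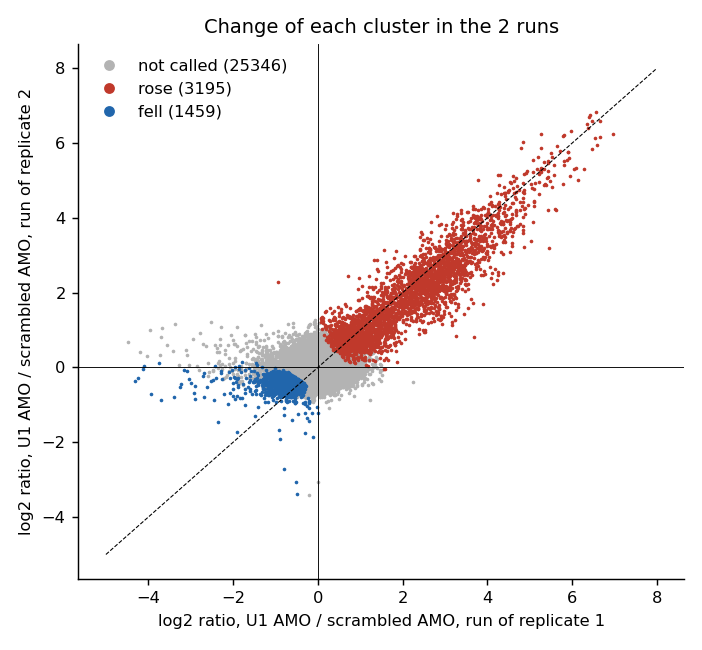
Log2 ratio of U1 AMO to scrambled AMO in the run of replicate 1 (horizontal) and of replicate 2 (vertical), 1 point per cluster outside chromosome M with a mean of at least 1 CPM, coloured by the edgeR call with the run as a term; the dashed line marks equal change. Rises extend along the line to log2 ratios above 6, and falls stay close to the origin or spread along one axis.

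To read changes in libraries that did not choose them, clusters were picked by their ratio in one run and measured in the other. The run of replicate 1 gave 2093 clusters that were at least 4-fold higher under the U1 AMO and had at least 20 reads in one of its libraries. In the run of replicate 2 their median log2 ratio was 2.31, 2091 of them were higher under the U1 AMO, and 64.8% were at least 4-fold higher, against 3.94% of all 37590 clusters with enough reads. In the other direction, the run of replicate 2 gave 1523 clusters, with a median log2 ratio of 2.92 in the run of replicate 1. Of these 1521 were higher there and 89.1% at least 4-fold higher, against 3.62% of 57319 clusters.

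Falls of 4-fold in the run of replicate 1 did not recur in that of replicate 2. The run of replicate 1 gave 100 clusters that were at least 4-fold lower under the U1 AMO, with median levels of 3.41 CPM for the scrambled AMO and 0.127, or 2 reads, for the U1 AMO. In the run of replicate 2 the same clusters had medians of 3.45 and 3.82 CPM and a median log2 ratio of 0.03, with 49 lower and 51 higher. None of the 100 was at least 4-fold lower there (0.0% of all 37590). The run of replicate 2 gave 8 such clusters. Their median was 0.0372 CPM in scrambled AMO replicate 1, too low for a 4-fold fall to show there after adding 0.5 CPM (0.164% of all 57319 showed one), so recurrence could not be read in this direction.

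**Figure D3:**
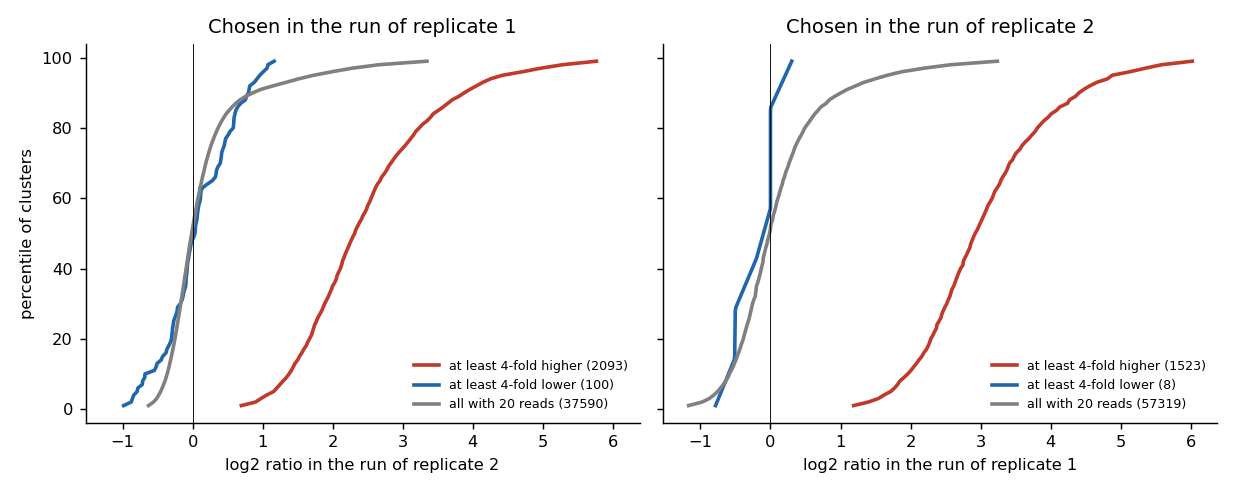
Percentiles of the log2 ratio in the run that did not choose the clusters, for clusters at least 4-fold higher or lower under the U1 AMO in the choosing run and for all clusters with enough reads. Clusters chosen as higher have medians of 2.31 and 2.92 in the other run, while the 100 chosen as lower in the run of replicate 1 have a median of 0.03. The 8 chosen as lower in the run of replicate 2 had too few reads in the other run to show a fall.

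Smaller falls of abundant clusters did recur in direction. With at least 10 CPM for the scrambled AMO in the run of replicate 1, 1156 of 10424 clusters were at least 1.5-fold lower under the U1 AMO in that run. In the run of replicate 2, 87.9% of these were lower, against 68.1% of all 10424, and 5.02% were at least 1.5-fold lower, against 0.94%. Chosen in the run of replicate 2, 128 of 9753 clusters were at least 1.5-fold lower. In the run of replicate 1, 89.1% of them were lower, against 67.6% of all, and 54.7% were at least 1.5-fold lower, against 10.4%. Rises of the same size in abundant clusters also recurred. They numbered 378 and 227 by choosing run, and 43.9% and 58.1% were at least 1.5-fold higher in the other run, against 3.5% and 3.88% of all.

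Under the U1 AMO a larger share of reads came from ends that untreated cells use little or not at all. A smaller share came from ends they use at moderate levels. The 552535 clusters with no untreated read took 1.52% ± 0.184 of reads under the U1 AMO and 0.644% ± 0.0537 under the scrambled AMO (SD, n = 2). The ratio was 2.42 in the run of replicate 1 and 2.29 in that of replicate 2. The 8402 clusters at 10 to 100 CPM in untreated cells took 26.1% ± 0.457 and 27.8% ± 0.625 (SD, n = 2). The exact permutation p was 0.333 for both (two-sided), the smallest that 2 libraries against 2 allow. In each run the U1 AMO share was the higher one for the first class and the lower one for the second. For the 2016 clusters at 100 CPM or more the shares were 60.7% ± 2.34 and 61.6% ± 2.17 (SD, n = 2), and the groups overlapped (exact permutation p = 0.667). Within the runs the differences were -1.04 and -0.787 percentage points, so the U1 AMO share was the lower one in each run here too. The 351985 clusters above 0 and under 1 CPM in untreated cells took 3.87% ± 0.536 and 2.75% ± 0.404 (SD, n = 2, exact permutation p = 0.333). Their within-run gains, 1.21 and 1.03 points, were larger than the 0.966 and 0.781 points of clusters with no untreated read. At 1 to 10 CPM the differences were 0.0535 and 0.116 points (exact permutation p = 0.667).

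The gain was larger on the upstream side of strong ends than on the downstream side in both runs. A strong end here is a cluster whose untreated mean is 10 CPM or more, and there were 10418. Clusters within 50 kb upstream of a strong end on its strand took 5.15% and 4.69% of U1 AMO reads, 3.82% and 3.55% of scrambled AMO reads, and 3.04% and 3.01% of untreated reads. Both U1 AMO libraries were above both scrambled AMO libraries, by 1.24 percentage points in the means (exact permutation p = 0.333). Clusters with a strong end downstream of them but none upstream had ratios of 1.37 and 1.35 within the runs. Those lying only downstream of a strong end had ratios of 1.11 and 1.08, and those with none within 50 kb 1.16 and 1.18. The difference between these ratios was not tested. The strong ends themselves took 85.5% and 88.2% of U1 AMO reads, 88.3% and 90.5% of scrambled AMO reads, and 91.3% and 91.5% of untreated reads.

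Calls followed the same order. Of 16211 tested clusters with a strong end only on their downstream side, 22.3% rose, against 13.4% of all tested clusters, and 0.790% fell. Of 7572 clusters between strong ends 18.6% rose, and of 25574 with none within reach 12% rose. On the downstream side alone 8.62% of 8917 rose. Strong ends rose in 2.87% of cases and fell in 9.94%, against 2.28% of all tested clusters that fell. By level, 9.07% of tested clusters fell from 10 to 30 CPM, 11.2% from 30 to 100 CPM and 8.89% above. These classes hold many of the strong ends themselves, whose median level was 30.3 CPM. The shares therefore do not set strong ends against other clusters of like level.

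Raised clusters lay near one another. A raised cluster had another within 1 kb on its strand in 27.3% of cases and within 5 kb in 47.0%, with a median distance of 6.46 kb. Over all 68821 tested clusters, 5.16% had a raised cluster within 1 kb and 12.8% within 5 kb, and the median distance was 78.6 kb. For falls, 7.57% had another fall within 1 kb, against 2.67% of tested clusters. Between a strong end and the next strong end upstream, or 50 kb, 7771 of the 10418 strong ends had no raised cluster, 1480 had 1 and 595 had 2, and the highest number was 13.

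Strong ends with and without raised clusters upstream had similar median changes. In this comparison strong ends were those with at least 10 CPM in the scrambled AMO library of the choosing run, raised clusters were at least 4-fold higher in that run, and the strong ends were measured in the other run. Chosen in the run of replicate 1, 994 strong ends had a raised cluster upstream and 9430 had none. Their median log2 ratios in the run of replicate 2 were -0.08 and -0.12, and 65.0% and 68.4% were lower under the U1 AMO. Chosen in the run of replicate 2, the medians in the run of replicate 1 were -0.15 for 720 with and -0.17 for 9033 without. These medians are over clusters and were not tested.

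With 2 or more raised clusters upstream the direction differed by run. The median was -0.06 over 225 strong ends chosen in the run of replicate 1, above the -0.12 of those with none. It was -0.18 over 161 chosen in the run of replicate 2, slightly below the -0.17 of those with none.

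The raised clusters of a strong end were usually minor beside it. Their summed gain was a median of 9.74% of the level of the strong end when chosen in the first run and 9.36% in the second. Where the gain came to at least 50% of the level of the strong end, the median log2 ratio in the other run was -0.04 over 114 strong ends (chosen in the run of replicate 1) and -0.19 over 69 (chosen in the run of replicate 2), against -0.12 and -0.17 for strong ends with no raised cluster.

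The stretch with the most raised clusters shows the arrangement; it was chosen after values were seen. Upstream of the strong end at chr10:117125922-117125967 (minus strand, mm9) there were 13 raised clusters, between 0.08 and 27.1 kb away. The largest, at chr10:117142018-117142069 and 16.1 kb upstream, had 0.112 and 0.0321 CPM under the scrambled AMO, 33.1 and 15.3 under the U1 AMO, and no read in untreated cells. At chr10:117139915-117139928 there was no read in either scrambled AMO library and there were 139 and 362 reads under the U1 AMO. Neither cluster had a common signal at its strongest position, which carried TaAaaa in the former and aataCa in the latter. The strong end rose too, from 164.6 and 82.8 CPM under the scrambled AMO to 368.0 and 241.5 under the U1 AMO, and its log2 fold change in edgeR was 1.33 ± 0.15 (SE, adjusted p = 9.08e-09). The untreated libraries had 96.5 and 180.2 CPM there, so both U1 AMO libraries were above all 4 others.

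**Figure D4:**
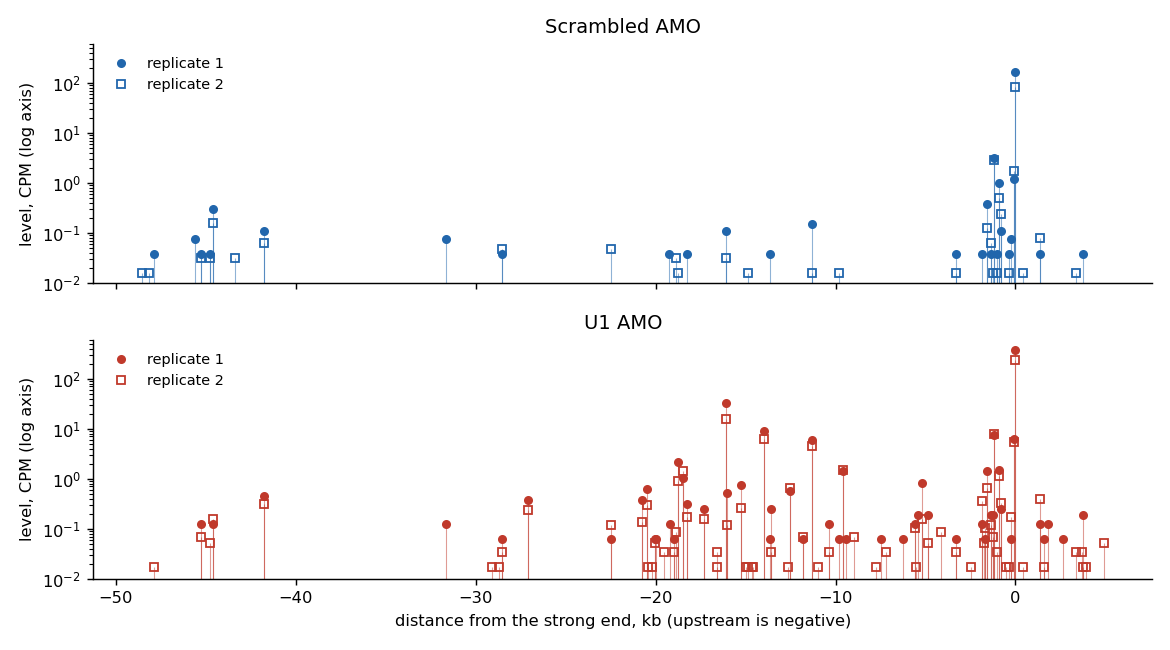
Level in CPM (log axis) of every cluster around the strong end with 13 raised clusters upstream, by distance from that end in kb, for the scrambled AMO (top) and U1 AMO (bottom) libraries; clusters without a read in a library are not drawn. With the scrambled AMO the clusters 8 to 22 kb upstream are absent or under 0.2 CPM, and under the U1 AMO the highest reaches 33.1 and 15.3 CPM.

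At other ends the upstream gain came with little change of the end itself. The strong end at chr1:88247051-88247084 (minus strand) had 3081 and 7453 CPM under the scrambled AMO and 2863 and 7038 under the U1 AMO, and it was not called (log2 fold change -0.12 ± 0.14 SE, edgeR adjusted p = 0.712). It had 11 raised clusters upstream, of which chr1:88252633-88252713 went from 2.27 and 1.14 CPM to 106.0 and 122.9. The strong end at chr19:36967358-36967427 (plus strand) had 347.6 and 323.7 CPM under the scrambled AMO and 391.2 and 305.7 under the U1 AMO. Its 11 raised clusters lay 20.6 to 47.1 kb upstream. The strongest of them under the U1 AMO, at chr19:36934125-36934149, had 0.521 and 0.482 CPM under the scrambled AMO and 10.2 and 8.77 under the U1 AMO.

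Raised clusters carried the common signals more often than uncalled clusters of like level, up to 10 CPM. At 0.3 to 1 CPM, 75.2% of rises had aataaa or aTtaaa at the strongest position, 60.0% of uncalled clusters did and 51.2% of the 82 falls did. At 3 to 10 CPM the shares were 80.8%, 73.8% and 68.6%. At 10 to 30 CPM they were 80.7%, 82.0% and 79.0%. These are shares over clusters, which are not replicates, and carry no test. The hexamer of all A, aaAaaa, went the other way, with 0.817% of rises and 5.30% of uncalled clusters at 0.3 to 1 CPM. At higher levels the shares rest on few rises. They were 1.19% of 336 rises and 0.715% of uncalled clusters at 10 to 30 CPM. At 30 to 100 CPM they were 1.91% of 157 rises and 0.236% of uncalled clusters, and at 100 CPM or more 0.0% of both. These numbers are too small to read a turn of the order.

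By hexamer, 14.2% of clusters with aataaa and 17.2% of those with aTtaaa rose, against 13.4% of all tested clusters. For aGtaaa the share was 15.7% and for Tataaa 11.4%. It was lowest among these kinds for the A-rich hexamers, at 3.43% for aaAaaa, 4.68% for TaAaaa and 6.99% for aaGaaa.

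Over all reads outside chromosome M the signals hardly moved. The canonical aataaa accompanied 71.6% and 70.5% of U1 AMO reads and 71.2% and 70.4% of scrambled AMO reads (exact permutation p = 0.667). Of the 36 hexamers, 7 gained share in both runs under the U1 AMO and 8 lost share in both. The distance from hexamer to cleavage point had a median of 21 nt in all 6 libraries. It was 22 nt over raised clusters and 21 nt over falls and uncalled ones.

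The rises of largest size in CPM from a scrambled AMO mean under 0.5 CPM showed the change from near silence. At chr14:52700835-52700854 (minus strand, canonical signal) there were 8 and 7 reads under the scrambled AMO and 1061 and 3760 under the U1 AMO, or 0.298 and 0.112 against 67.4 and 64.9 CPM, with none in untreated cells. Its log2 fold change was 8.52 ± 0.27 (SE, edgeR adjusted p = 2.38e-22). The cluster at chr7:97125102-97125174 (minus strand, canonical signal) went from 0.335 and 0.177 CPM to 83.4 and 64.5. At chr15:36717000-36717042 (minus strand, canonical signal) the levels were 0.223 and 0.0803 CPM, then 60.2 and 59.2.

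The other three of this kind carried variant signals. At chr4:153353347-153353374 (plus strand, aTtaaa) 5 and 5 reads became 942 and 3228, and untreated cells had none. At chr2:128929801-128929811 (plus strand, aTtaaa) 2 and 4 reads became 843 and 3688. At chr10:88288888-88288904 (minus strand, aataTa) 2 and 0 reads became 745 and 2409. The choice by size of gain left no room for the groups to overlap at these 6 clusters. All were called without the run term too, and the untreated libraries had at most 3 reads at each.

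Clusters already in use under the scrambled AMO also rose, by about 8-fold to 12-fold within a run at the 6 highest. At chr19:60835795-60835826 (plus strand) the levels were 5.14 and 7.0 CPM under the scrambled AMO, 57.6 and 82.0 under the U1 AMO, and 5.03 and 5.69 in untreated cells. The ratios were 11.2 and 11.7 within the runs, and the log2 fold change was 3.50 ± 0.17 (SE, edgeR adjusted p = 1.62e-17). At chr14:103375788-103375855 (minus strand) the levels were 6.78 and 3.98, then 70.5 and 48.7 CPM. At chr10:114751769-114751810 (minus strand, aGtaaa) they were 12.8 and 7.20, then 128.2 and 74.1 CPM, a ratio of 10.01 and 10.3. In the last 2 clusters replicate 1 was above replicate 2 in both groups, so the ratio within a run varied less than the level.

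The rest of these 6 behaved alike. The ratios within the runs were 10.4 and 12 at chr10:60914523-60914550 (minus strand), 8.27 and 9.85 at chr2:53936501-53936531 (minus strand) and 8.77 and 8.05 at chr11:53113046-53113074 (minus strand). At all 3 the untreated libraries were below both scrambled AMO libraries, as they were at chr14:103375788-103375855. At the last of the 3 the untreated libraries had 2.75 and 1.21 CPM and the scrambled AMO libraries 13.1 and 10.7 CPM. The strongest position carried the canonical signal in all 3.

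The falls with the largest change in both runs were of 2 sorts. At chr2:138414619-138414620 (minus strand) the scrambled AMO had 0.894 and 46.3 CPM and the U1 AMO 0.254 and 11.9, while untreated cells had 44.4 and 3.39. Here the runs differed far more than the treatments. Levels also differed widely between runs at 3 other clusters, each at most 7 nt wide, and their falls were far larger in the run of replicate 1. These were chr4:68759744-68759745 (plus strand, 7.71 and 73.9 CPM, then 0.127 and 40.1), chr3:77699291-77699297 (plus strand, 3.24 and 23.1, then 0.190 and 12.5) and chr5:70793044 (plus strand, 1.94 and 11.9, then 0.127 and 6.40). In that order the U1 AMO level was 60.7-fold, 17.0-fold and 15.3-fold lower in the run of replicate 1. In the run of replicate 2 it was 1.84-fold, 1.85-fold and 1.86-fold lower. U1 AMO replicate 1 had 2 to 4 reads at each of the 4 clusters. Without scrambled AMO replicate 2, in a fit that compares libraries across runs, their log2 fold changes became 2.93, 1.54, 1.14 and 0.94.

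The other two fell alike in both runs. The cluster at chrX:130610389-130610453 (plus strand, canonical signal) had 15.4 and 14.9 CPM under the scrambled AMO and 8.25 and 7.80 under the U1 AMO. Its log2 fold change was -0.94 ± 0.18 (SE, edgeR adjusted p = 0.000196), and untreated cells had 9.07 and 19.6 CPM. At chr2:167302493-167302503 (plus strand, canonical signal) 11.4 and 15.1 CPM became 5.21 and 8.11, with a log2 fold change of -1.02 ± 0.19 (SE, edgeR adjusted p = 0.000125). The untreated libraries there had 10.99 and 19.2 CPM. At both clusters the U1 AMO libraries were below all 4 others. Without the run term none of the 6 falls was called in edgeR, with adjusted p = 0.160 and 0.425 for these last, and DESeq2 with the run term did not call chr4:68759744-68759745, chr3:77699291-77699297 and chr5:70793044.

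Clusters that moved in opposite directions in the runs mark how far single pairs can differ. At chr7:25086890-25086895 (plus strand) the level was 12.6 CPM under the scrambled AMO and 0.508 under the U1 AMO in the run of replicate 1, and 56.9 and 99.9 in that of replicate 2. It was not called (log2 fold change -0.73 ± 0.45 SE, edgeR adjusted p = 0.358). At chr3:93205265-93205271 (plus strand) 45.4 became 30.3 CPM in the first run and 7.77 became 12.3 in the second. At chr19:7432171-7432184 (minus strand) 42.6 became 28.8 and 7.02 became 11.4. At chrX:148708292-148708303 (plus strand) 22.8 became 33.8 and 42.7 became 25.5. None of these 4 was called. The choice by opposite signs in the runs made the U1 AMO and scrambled AMO libraries overlap at each.

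Of the 5 most abundant clusters, 1 was called. The cluster at chr8:96697429-96697498 (plus strand, canonical signal) rose from 3779 and 6299 CPM to 6374 and 10401, with 1871 and 1744 in untreated cells. The ratio was 1.69 and 1.65 within the runs, and the log2 fold change was 0.72 ± 0.14 (SE, edgeR adjusted p = 0.000193, and 0.853 without the run term). The ranges of the 2 groups nearly met, since the higher scrambled AMO library was just below the lower U1 AMO library. At chr4:3761600-3761630 (minus strand) the levels were 10518 and 10069 CPM under the scrambled AMO and 9363 and 10678 under the U1 AMO. At chr11:68718003-68718057 (plus strand) they were 9186 and 9150, then 8502 and 10393. The log2 fold changes of this pair were -0.06 ± 0.14 and 0.01 ± 0.14 (SE). At chr14:25315076-25315095 (plus strand) the log2 fold change was -0.32 ± 0.15 (SE, edgeR adjusted p = 0.158), and at chr5:143664787-143664817 (minus strand) it was 0.14 ± 0.14 (SE, edgeR adjusted p = 0.642).

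Within strong clusters the cleavage point moved little. Over 5462 clusters with a scrambled AMO mean of at least 30 CPM, the mean cleavage position moved by a median of 0.04 nt toward the 3′ side in the run of replicate 1 and by -0.004 nt in that of replicate 2. The 10th and 90th percentiles were -0.22 and 0.31 nt, and -0.28 and 0.16 nt. Between the 2 scrambled AMO libraries, which come from different runs, the same percentiles were -0.49 and 0.33 nt. A move of more than 1 nt in both runs was seen toward the 3′ side at 8 clusters and toward the 5′ side at 35. The largest, given as values with no test, were -5.58 and -3.53 nt at chr8:69000210-69000353 (minus strand) and -3.45 and -3.98 nt at chr19:46158939-46159051 (plus strand).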

How the data were processed

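Per the labels, the libraries are 3′ end sequencing of poly(A)-selected RNA, amplified by PCR with no molecular identifier described, so reads are not independent molecules and precision from counts covers counting error only. Reads were handled with cutadapt and Bowtie on the mm9 build, per the submitters' processing notes. Their versions, and how positions were filtered, are not given in the sources used. The authors deposited, per library, stranded positions with whole-number read counts and, in other columns, a signal hexamer and its distance to the position.

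Positions of the 6 libraries were joined into clusters at up to 24 nt, reads were summed and scaled to CPM. The main test was edgeR 4.0.16 (R 4.3.3; glmQLFit, TMM, filterByExpr) on the 4 AMO libraries with the run as a term, and standard errors were derived from the F statistic. DESeq2 1.42.0 was an alternative, and 8006 of its adjusted p-values were undefined. The tests were tried on simulated data. For edgeR the counts were drawn with the dispersion estimated from these same libraries, so the trial could not check that dispersion. Scripts ran in Python 3.11.15 with pandas 2.3.3 and numpy 2.4.6. Deviations from group means of same-numbered AMO libraries correlated at r = 0.78 over 30285 clusters, and the numbers share a run per the file read names. Replicate 1 of both groups shared a lane, and replicate 2 did not. Labels call the replicates biological and name no separate cultures or dates.

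Named clusters lie outside chromosome M and follow 5 rules. The first takes the 6 rises with the largest within-run gain in CPM from under 0.5 CPM. The next 2 take the 6 rises and the 6 falls with the largest within-run log2 ratios from 5 CPM or more, each by the smaller of the 2 runs. The last 2 take the 4 clusters of at least 20 CPM with the largest opposite changes and the 5 most abundant clusters. Clusters, rules and tests were chosen with earlier results of these data known. Lists of genes and cell markers were not used here, since the clusters carry no gene names.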

Additional observations from a re-analysis of the deposited data

How the results depend on the processing

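With the replicate block taken out, the 9199 rises and 1571 falls became 2599 and 0 in the 4 libraries and 534 and 0 in all 6 (157 and 75 falls at an unadjusted p under 0.05 by edgeR). They became 3737 and 463 with DESeq2. After thinning to the shallowest library they were 4962 and 852, with 40062 clusters tested in place of 68821. Leaving out 1 library, with no replicate block, gave 0 to 4292 rises (2592 and 1122 without either replicate 2, scrambled AMO first) and 0 to 173 falls (13 and 6). RLE factors, library size alone, no filter, joining at 10 or 50 nt, clusters of at least 2 positions and leaving out chromosome M gave 8469 to 9268 rises and 1176 to 2213 falls. Falls named in the text that turned to rises without scrambled AMO replicate 2 had log2 fold changes of 2.93 (chr2:138414619-138414620), 1.54 (chr4:68759744-68759745), 1.14 (chr3:77699291-77699297) and 0.94 (chr5:70793044-70793044). The uncalled chr7:25086890-25086895 turned to 1.50 without U1 AMO replicate 1. Without scrambled AMO replicate 1 no named cluster was called, and with no filter on low counts the uncalled chr7:25086890-25086895 and chr14:25315076-25315095 were called as falls by edgeR. For clusters chosen as higher in the run of replicate 1, the median of 2.31 became 3.37 with 0.1 CPM added, 2.79 with 50 reads, 1.68 at 2-fold and 3.30 at 8-fold. Chosen in the other run, 2.92 became 1.77 at 2-fold and 3.86 at 8-fold. For clusters chosen as lower, 0.03 became -0.10 at 2-fold, and -0.10 became 0 and -0.29 with 0.1 and 1 CPM added and -0.35 at 8-fold. The difference between strong ends with and without a raised cluster was 0.03 and 0.02 (chosen in each run). It became 0.0687 and 0.0694 at 10 kb and 0.0572 and 0.0417 at 20 kb. For the first it was 0.0233 at 50 CPM and 0.0549 with 1 CPM added, and for the second it was 0.000975 with 0.1 CPM added. The U1 AMO excess of AATAAA or ATTAAA, 0.228 points of reads, became -0.142 with chromosome M and ranged from -0.125 to 0.582 without 1 library. For AATAAA alone, 0.279 became -0.0337 and ranged from -0.311 to 0.868. Mean spacing differed by -0.00718 nt, by 0.0515 nt over distinct positions and by -0.0705 to 0.0561 without 1 library. In these shares the cause was not tested. The excess of reads upstream of strong ends was 1.24 points with the replicate block and 1.01 to 1.47 without 1 library. It was 0.673 points with a window of 20 kb and 0.315 with 10 kb. The excess at clusters without an untreated read, whose alternatives were chosen after seeing the data, was 0.874 points with the block and 0.743 to 1.0 without 1 library.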

Other observations

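Chromosome X had a smaller gain at little-used clusters than any of the 19 autosomes. Clusters under 1 CPM in untreated cells took 5.12% and 4.48% of the chromosome X reads under the scrambled AMO and 5.84% and 5.47% under the U1 AMO, ratios of 1.14 and 1.22 within the runs of replicates 1 and 2. The ratios of the autosomes ran from 1.48 to 1.83 in the first run and from 1.48 to 1.76 in the second. In edgeR with the run as a term, 169 of 2060 tested chromosome X clusters other than strong ends rose (8.20%), against 13.6% to 17.3% on the autosomes. This pattern was seen in the data and not tested further.

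Chromosome M took 2.15% and 1.22% of reads under the U1 AMO, 1.60% and 0.853% under the scrambled AMO; untreated cells had 0.617% and 0.352%. The run of replicate 1 was higher than that of replicate 2 in both AMO groups, and the within-run ratios were 1.34 and 1.43. The exact permutation p was 0.667. Of its 129 tested clusters 36 rose in edgeR (27.9%) and 1 fell, against 13.4% and 2.28% of all tested clusters.

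The hexamer aCtaaT, in which capitals mark differences from aataaa, took 1.87 and 1.58 times the scrambled AMO share of reads under the U1 AMO. A single cluster led this, at chr14:35124922-35124962 (plus strand, mm9), with 1.56 and 1.01 CPM for the scrambled AMO, 125.3 and 72.3 for the U1 AMO, and 0.959 and 1.54 in untreated cells. Its log2 fold change was 6.21 ± 0.20 (SE, edgeR adjusted p = 2.57e-22).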
